A study of Mus musculus with 2 samples.

Results

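Isl1, the gene for a LIM-homeodomain transcription factor, was followed in single cells of the embryonic mouse medial ganglionic eminence (MGE), the ventral forebrain swelling that gives rise to interneurons and to cholinergic neurons. It was 1 of 18088 genes in the deposited table and was chosen by name, to set Isl1 cells that also carried Ebf1 against Isl1 cells that also carried Lhx8. The table held 4001 cells, 3995 of which were used, and Isl1 had a value of at least 1 in 1208 of them and of at least 2 in 805. All cells came from CD-1 embryos at E11.5 and were sequenced as 1 pooled 10x library after MULTI-seq labelling, which tags the cells of each suspension with a barcode oligo. The barcode list named 6 suspensions: 2 hs192 MGE suspensions gated on GFP and 1 ungated, and the same for hs799, where hs192 and hs799 are the enhancers named in the labels. The 4 gated suspensions can set the share of any cell type. No map from cells to suspensions was used here, so the pool is 1 sample, cells are not replicates, and no test of a difference was possible. The labels used here do not say how the enhancers were joined to GFP or how many embryos were pooled.

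Isl1 belongs to the LIM-homeodomain family, whose members bind TAAT-type sites in DNA and act in complexes held together by the adaptor Ldb1. In the ventral forebrain it is best known in 2 lineages that leave the ganglionic eminences. In the striatum, which comes mainly from the lateral ganglionic eminence (LGE), Isl1 marks the neurons of the direct pathway, where Ebf1, a helix-loop-helix factor, is also active. In MGE-derived cells that go on to make acetylcholine, Isl1 acts together with its relative Lhx8, whereas the related Lhx6 marks the cortical interneuron lineage.

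Isl1 lies on chromosome 13 of the mouse build GRCm38, from 116298281 to 116309689 on the minus strand, as a protein-coding gene of 11409 bases with 5 annotated transcripts, the longest of which has 6 exons. No protein-coding gene with a row in the table lies nearer than Parp8, 545131 bases away, and the correlation of Parp8 with Isl1 over neurons was -0.01. Ebf1 lies on chromosome 11 from 44617317 to 45008091 on the plus strand, and Lhx8 on chromosome 3 from 154306294 to 154330659 on the minus strand. The promoter of Isl1 is shown because it is the stretch from which the measured RNA starts. It is the RefSeq sequence on GRCm38.p6 at chr13:116309639-116309938, minus strand, with TAAT, the core that homeodomain factors bind, in capitals.
Isl1 promoter: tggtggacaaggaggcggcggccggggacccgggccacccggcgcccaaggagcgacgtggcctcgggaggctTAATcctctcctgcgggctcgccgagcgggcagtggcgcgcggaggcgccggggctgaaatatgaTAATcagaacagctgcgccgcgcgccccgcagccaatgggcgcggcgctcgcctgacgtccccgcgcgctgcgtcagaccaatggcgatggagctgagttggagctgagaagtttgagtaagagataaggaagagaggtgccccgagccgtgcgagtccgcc
The 300 bases have a GC content of 69%. TAAT, searched on both strands, matched 2 times, starting at bases 74 and 139 counted from the 5′ end, and 58.0% of 32851 promoters of the same length held at least 1 match. The longer homeodomain word TAATTA, in which TAAT is contained, had 0 matches in the window, against a match in 5.29% of all promoters. CCCNNGGG, the form of the Ebf1 site searched, also had 0 matches, against 13.7% of all promoters. A match is a description of letters, and the library read RNA and not binding.

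The values are whole numbers that the authors had already corrected to a common depth, so the raw depth of a cell is unknown. Cell totals lay between 10475 and 14196 (median 12506), with 2471 to 5486 genes per cell (median 3989). A level below is a gene's summed value per 10000 summed values of a group of cells. Its standard deviation (SD) was taken over cells and describes the cells of 1 library. A gene counted as present at a value of 2 or more and as absent at 0, and a value of 1 as neither. Shares carry exact (Clopper-Pearson) 95% intervals that cover the counting of cells only. In 213 cells (5.32%) the value 1 was nearly missing, so a low Isl1 value there nearly always read as 0 or as 2 or more.

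Isl1 was not detected in most cells and was high in few. It was at 0 in 2787 cells (69.8%), at 1 in 403, at 2 in 147, at 3 to 4 in 185, at 5 to 9 in 269, at 10 to 19 in 166 and at 20 to 43 in 38. The 38 strongest cells were 0.951% of the total and carried 15.1% of all Isl1. Neurons, taken as cells with a value of at least 10 for Tubb3, the neuronal tubulin, numbered 2758. Their Isl1 level was 1.71 (SD 3.56), against 0.298 (SD 0.932) in the other 1237 cells. Isl1 was present in 25.7% of neurons (24.1% to 27.4%) and in 7.68% of other cells (6.26% to 9.31%). The Tubb3 limit cut through a continuum, with 187 cells at Tubb3 values from 8 to 12. Among the 95 cells below the limit with Isl1, 17 had Lhx8 and 0 had Ebf1.

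Clustering the cells without using Isl1 gave 20 clusters, and Isl1 was concentrated in 3 of them. The highest level, 9.72 (SD 5.88), was in cluster 20, an LGE neuron-like cluster of 125 cells. Of the 10 markers of that class 4 were raised in it: Ebf1, Meis2, Tac1 and Zfp503. Foxp1, Foxp2, Bcl11b, Ikzf1, Rxrg and Gucy1a1 did not count as raised. Every cell of cluster 20 had Isl1, with values of 1 to 43 and a median of 12. These cells were 3.13% of all cells and carried 25.3% of the summed Isl1. Cluster 18, of 150 cells, came next at 5.96 (SD 3.52), with Isl1 present in 90.7% (84.8% to 94.8%). This second place depended on the clustering: with Isl1 kept in, with Isl1, Ebf1 and Lhx8 left out or with 4000 variable genes, a subventricular zone progenitor-like cluster came second, at 3.29, 4.13 and 4.15. LGE neuron-like cells numbered 212 to 280 over the 5 other clusterings, against 125 here. Cluster 18 stayed unnamed. Its best-scoring class was that of the caudal ganglionic eminence, with Nr2f2, Prox1 and Sp8 raised. Its leading genes, however, held both Sp8 and Zfp503, the latter a marker of LGE neurons. Sp8 is also on the list of striatal lineage factors used below. Its Ebf1 level was 1.75, its Lhx8 level 0.518 and its Meis2 level 8.87, the last against 10.5 in cluster 20. Cluster 16, of 198 cells, had an Isl1 level of 4.91 (SD 5.46) and Isl1 in 65.7% of cells (58.6% to 72.2%). It was subventricular zone progenitor-like by markers of newly born cells such as Dll3 and Gadd45g, yet 93.4% of its cells passed the Tubb3 limit, and its Lhx8 level was 5.73.

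**Figure D1:**
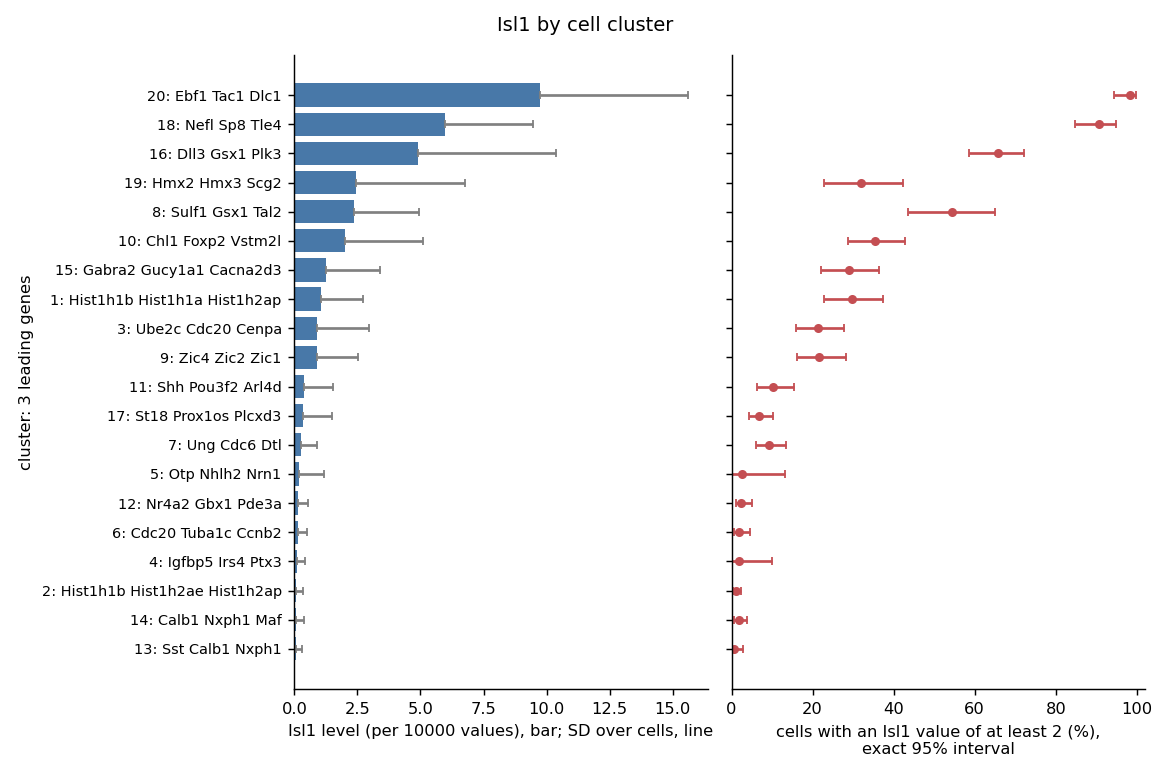
Isl1 in the 20 clusters, each named by its number and 3 leading genes. The left panel gives the level per 10000 values as a bar and the SD over cells as a line, and the right panel the share of cells with a value of at least 2 with its exact 95% interval. Clusters 20, 18 and 16 stand at the top with levels of 9.72, 5.96 and 4.91, and the GABAergic clusters 14 and 13 at the bottom.

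Below these, Isl1 levels went down in small steps. They were 2.43 (SD 4.32) in cluster 19, led by the homeobox genes Hmx2 and Hmx3, 2.35 (SD 2.59) in cluster 8 and 1.99 (SD 3.11) in cluster 10, led by Chl1 and Foxp2. Cluster 10 stayed unnamed, but its best-scoring class was that of cholinergic neurons. Lhx8, Gbx1, Gbx2, Zic1 and Zic4 were raised in it, and its Lhx8 level was 9.76. Cluster 15, led by Gabra2, followed at 1.25 (SD 2.16). The 3 cholinergic neuron-like clusters differed among themselves, with Isl1 levels of 0.883 (SD 1.63) in cluster 9, led by Zic genes, 0.375 (SD 1.16) in cluster 11 and 0.140 (SD 0.392) in cluster 12, led by Nr4a2 and Gbx1. Isl1 was present in 21.6% (16.1% to 28.1%), 10.3% (6.38% to 15.4%) and 2.42% (0.979% to 4.93%) of their cells. Their Lhx8 levels were alike at 11.7, 10.8 and 11.7, but Lhx8 was among the markers that named them. The only other raised markers of that class were Zic and Gbx genes. Lhx6 stood at 2.97, 3.77 and 3.21 in clusters 9, 11 and 12, near the 3.50 and 3.60 of the GABAergic clusters 14 and 13. The name therefore does not show a cholinergic fate. In GABAergic MGE neuron-like cells the Isl1 level was 0.0706 (SD 0.276), and in ventricular zone progenitor-like cells 0.136 (SD 0.422). The latter, taken as the measure of background because they are not yet neurons, had Isl1 at 1 or more in 12.9% of cells (10.99% to 15.1%) and at 2 or more in 3.23% (2.26% to 4.47%). That background was uneven, with 9.16% (5.96% to 13.3%) in cluster 7 and 0.984% to 1.93% in the other 3 progenitor-like clusters. The 2.42% of cluster 12 lay below cluster 7 and above these 3, whose intervals overlapped its own. The median number of genes per cell was 4072.5 to 4649.5 in the 4 progenitor-like clusters and 3830 in cluster 12. No neighbouring pair of clusters in the order of levels differed by more than the larger of their SDs over cells. The share intervals of neighbours in that order did not overlap for 18 and 16, 16 and 19, 19 and 8, 8 and 10, and 9 and 11, and overlapped for all other neighbours. The order of shares was not that of levels: Isl1 was present in 54.4% (43.6% to 65.0%) of cluster 8 but in 31 of the 97 cells (22.9% to 42.2%) of cluster 19, which had the slightly higher level.

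At a minimum value of 2, few Isl1 neurons had both Ebf1 and Lhx8. Among the 710 neurons with Isl1, Ebf1 was present in 16.5% (13.8% to 19.4%) and Lhx8 in 43.7% (39.98% to 47.4%), and 11 cells, 1.55%, had both (0.776% to 2.76%). The share with both depended on the minimum, being 8.08% (6.45% to 9.97%), 79 of 978 cells, at a minimum of 1 and 0.658% (0.180% to 1.68%), 4 of 608, at a minimum of 3. Among the 1780 neurons without Isl1, Ebf1 was present in 1.35% (0.866% to 2.0%) and Lhx8 in 70.2% (68.0% to 72.3%). Seen from the partner genes, Isl1 was present in 80.1% (72.7% to 86.3%) of 146 Ebf1 neurons but in 17.8% (16.1% to 19.7%) of 1739 Lhx8 neurons. At a minimum of 1 these shares were nearer to each other, at 60.7% (54.9% to 66.2%) and 30.4% (28.4% to 32.4%), and at a minimum of 3 they were 91.7% and 14.1%. At each minimum most Ebf1 neurons had Isl1, and most Lhx8 neurons did not reach the minimum for it. After each cell was thinned to 10000 values, the shares of Ebf1 and Lhx8 among Isl1 neurons were 17.3% and 40.3%, and those of Isl1 among Ebf1 and Lhx8 neurons 81.9% and 15.7%. The deposited totals were already close to each other, so thinning does not equalize raw depth.

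**Figure D2:**
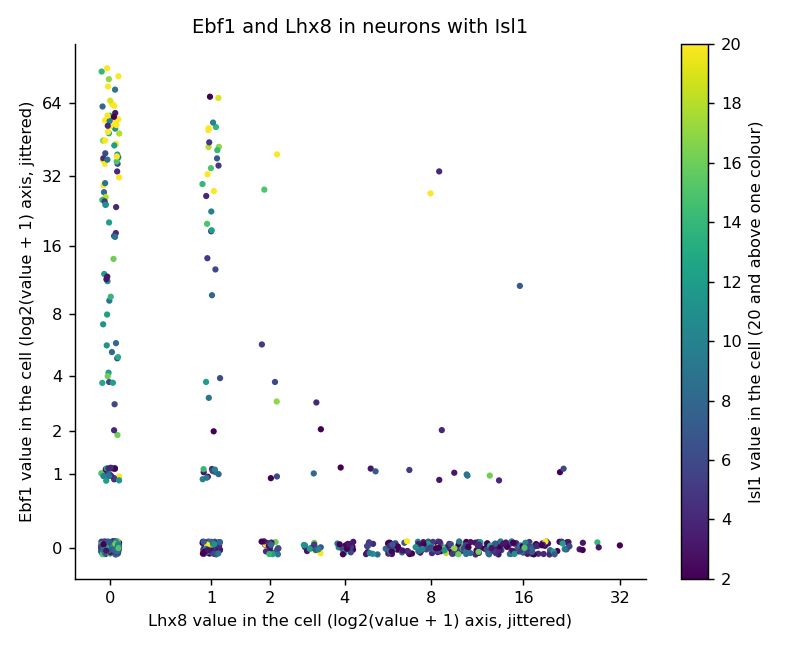
Each point is 1 of the 710 neurons with Isl1, placed by its Lhx8 value (horizontal) and Ebf1 value (vertical) on log2(value + 1) axes with jitter, and coloured by its Isl1 value. Most points lie along one axis or at the origin, 11 have both genes at 2 or more, and the cells high on the Ebf1 axis include many with Isl1 values of 10 or more.

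With the other partner at 0, there were 78 Isl1-Ebf1 neurons and 284 Isl1-Lhx8 neurons. A further 193 Isl1 neurons had neither gene, and 144 had at least 1 of them at a value of 1. Of the Isl1-Ebf1 neurons, 68 lay in cluster 20 and 10 in cluster 18. Ebf1, which chose these cells, was used in that clustering and leads cluster 20, so this placing is partly set by the choice. When Isl1, Ebf1 and Lhx8 were all left out of the clustering, all 78 lay in 1 LGE neuron-like cluster of 238 cells, and no cluster held more than 81 of the 284 Isl1-Lhx8 neurons. Cholinergic neuron-like clusters of that clustering held 81, 49 and 7 of the 284. Subventricular zone progenitor-like clusters held 57, 17 and 7, unnamed clusters 30, 11 and 9, and the LGE neuron-like cluster 10. In the clustering without Isl1 alone, the Isl1-Lhx8 neurons were spread, with 77 in cluster 16, 61 in cluster 10, 38 in cluster 9, 26 in cluster 15 and 17 each in clusters 3 and 11. Clusters 16 and 3 were subventricular zone progenitor-like, and cluster 3 was led by the mitosis genes Ube2c and Cdc20. A further 7, 6, 2 and 1 cells lay in the progenitor-like clusters 1, 8, 7 and 6. No Isl1-Ebf1 neuron lay in a progenitor-like cluster. The Isl1 level was 10.6 (SD 5.60, median value 12) in Isl1-Ebf1 neurons and 5.11 (SD 4.04, median value 5) in Isl1-Lhx8 neurons. The difference, a log2 ratio of 1.05, was about the size of the SD over cells. Isl1 neurons with neither stood at 5.89 (SD 4.02). Within Isl1-Ebf1 neurons Isl1 and Ebf1 went up together, with a Pearson correlation of 0.30 over 78 cells. Within Isl1-Lhx8 neurons the correlation of Isl1 with Lhx8 was -0.06 over 284 cells. These correlations describe cells that share 1 library.

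The 2 groups also differed in maturity and quality measures. The median Tubb3 value was 40.5 in Isl1-Ebf1 and 29.5 in Isl1-Lhx8 neurons, and the median number of genes per cell 4389 and 3855. The share of cells nearly lacking the value 1 was 0% and 11.3%. Their part in the differences below was not tested. A comparison limited to cells with Tubb3 of at least 30 (62 and 142 cells), added after the values had been seen, is given beside the results. Markers of blood vessel, microglial and mural cells, of which only 1 of each list had a row, summed to at most 0.0285 in both groups, and the 5 erythroid markers to 1.72 and 1.78.

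Isl1-Ebf1 neurons had higher levels of the striatal genes Meis2, Zfp503 and Tac1, and Isl1-Lhx8 neurons of Nkx2-1, the Zic genes and genes of newly born cells. A ratio was formed for the 9510 genes with at least 30 summed values over both groups, leaving out the genes that chose them. The level was more than 2-fold higher in Isl1-Ebf1 neurons for 603 genes (6.34%) and more than 2-fold lower for 711 (7.48%). With Tubb3 of at least 30 the counts were 396 (4.95%) and 310 (3.88%) of 8000. They were 230 and 284 of 6132 genes with at least 100 summed values, and 283 and 306 when 0.1 was added to both levels, which shrinks the ratios of low genes.

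Among genes higher with Ebf1, Meis2, a homeodomain factor of the LGE and striatum, stood at 12.8 (SD 8.98) against 0.751 (SD 2.03), a log2 ratio of 4.09. Zfp503, also called Nolz1, a zinc finger factor of striatal precursors, had levels of 2.45 (SD 1.82) and 0.0514 (SD 0.401), a log2 ratio of 5.57. Tac1, the precursor of substance P, the peptide of direct pathway neurons, stood at 4.01 (SD 8.91) against 0.0257 (SD 0.225), a log2 ratio of 7.29. It was found in 36 of the 78 cells, with values up to 89. The proteoglycan gene Vcan was at 18.4 (SD 7.78) against 1.59 (SD 2.60), a log2 ratio of 3.53. The other genes at this end of the ranking were Rgs2, Dlc1, Plk2, Pcdh10, Cntnap2, Nrg1, Lypd1 and Nefl, with log2 ratios from 2.54 to 6.62. In the cells with Tubb3 of at least 30, Meis2 and Tac1 had log2 ratios of 3.85 and 6.84.

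Among genes higher with Lhx8, Nkx2-1, the homeodomain factor that specifies the MGE, stood at 4.24 (SD 3.09) against 0.0590 (SD 0.211) in Isl1-Ebf1 neurons, a log2 ratio of -6.17. Sp9, a zinc finger factor of the subventricular zone and of indirect pathway neurons, had levels of 4.51 (SD 4.25) and 0.197 (SD 0.477), a log2 ratio of -4.52. Zic1 stood at 4.01 (SD 4.42) against 0.423 (SD 0.935), a log2 ratio of -3.25. Lmo1, a LIM-only protein gene, gave -3.76, and the others at this end (Ccnd2, Dlx6os1, Hist1h1b, Crabp2, Dlx1, Hmgb2, Mdk, Gadd45g) lay between -4.61 and -2.76. With Tubb3 of at least 30, Nkx2-1 and Sp9 kept log2 ratios of -6.00 and -4.07, whereas Lmo1 moved to -2.24. At a minimum value of 1 for the choice of cells, Hist1h1b was within 2-fold (-0.46).

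**Figure D3:**
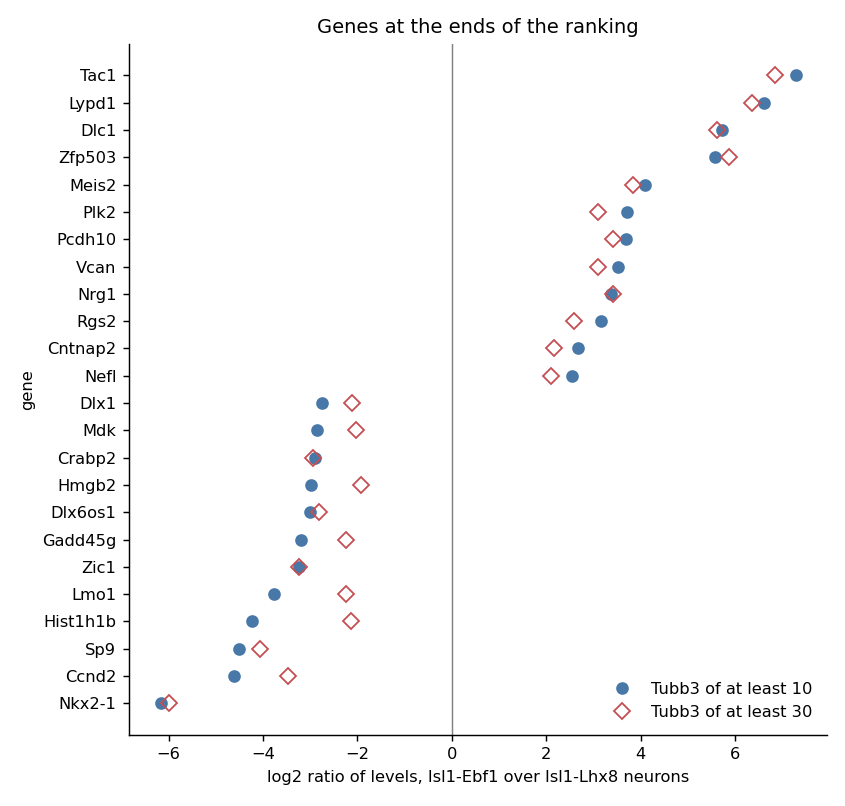
The 12 genes at each end of the ranking of Isl1-Ebf1 against Isl1-Lhx8 neurons, with the log2 ratio of levels on the horizontal axis. Filled circles are all neurons of the 2 groups and open diamonds those with Tubb3 of at least 30. Every gene shown keeps its side of 0, and Hist1h1b and Lmo1 move the most towards it, from -4.24 to -2.15 and from -3.76 to -2.24.

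The cholinergic and interneuron lists described the same division, whereas the striatal lineage list as a whole did not. Of 10 cholinergic lineage factors with enough values, 8 were more than 2-fold lower in Isl1-Ebf1 neurons, among them Gbx1 (-2.62), Zic4 (-3.38) and Nr4a2 (-3.22), and 1 was higher, with a list median of -2.92 against 0.04 over all genes. With 0.1 added to both levels Nr4a2 was within 2-fold (-0.80). The exception was Zfhx3, a large zinc finger and homeodomain factor, at 16.1 against 6.81, a log2 ratio of 1.24 that was 0.74 with Tubb3 of at least 30. Of 13 interneuron lineage genes, 10 were lower, including Lhx6 (-2.90) and Sox6 (-3.79), and 2 were higher, among them Sst (2.66), which was within 2-fold (0.61) at a minimum value of 1. Of 14 striatal lineage factors, 2 were higher (Meis2 and Zfp503) and 3 lower (Sp9, Six3 and Tshz1, the last listed at 0 in Isl1-Ebf1 neurons). The median of this list was 0.07 against 0.04 over all genes. Of 3 indirect pathway genes with enough values, among them Sp9 and Six3, 3 were lower, with a median of -2.32. Bcl11b, which encodes the striatal factor Ctip2, stood at 5.21 against 2.87, a log2 ratio of 0.86 that was 1.26 with Tubb3 of at least 30. Foxp1 was low in both groups and not past 2-fold (-0.33). Of 4 striatal signalling genes with enough values, Arpp21 (2.69) and Pde1b (1.41) were higher and 0 lower, with a list median of 1.16. In the cells with Tubb3 of at least 30, 1 of 3 was higher, Arpp21 (2.59), with a median of 0.38, and Pde1b no longer had enough values. Drd1, the receptor of direct pathway neurons, had no row in the table and could not be analysed.

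Other lists divided as well. Gad2 and Slc32a1, for GABA synthesis and vesicle loading, were within 2-fold (0.43 and 0.36), while Gad1 was lower with Ebf1 (-1.55). In the Dlx family, Dlx1 (-2.76) and Dlx2 (-2.66) were lower and Dlx6 higher (1.73). Of 14 pan-neuronal genes, 7 were higher with Ebf1, with Stmn2 at 1.40 (0.99 with Tubb3 of at least 30) and Gap43 at 1.80. Of 8 progenitor and Notch pathway genes 8 were lower, among them Dll3 (-3.25), and of 7 cell cycle genes 6 were lower. With Tubb3 of at least 30, the last 3 lists gave 4 of 14 higher, 7 of 8 lower and 2 of 4 lower. Of 28 axon guidance genes, 8 were higher and 6 lower. The higher ones included Sema3a (4.43), Ephb1 (2.91), Robo2 (2.32) and Robo1 (1.71), and the lower ones Robo3 (-2.80).

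Isl1-Lhx8 neurons were next set against Lhx8 neurons without Isl1, of which there were 1176. Those with Isl1 had lower levels of Lhx6 and other interneuron genes and higher levels of Zfhx3 and several Zic genes. The Lhx8 level was 8.51 (SD 4.71) with Isl1 and 8.58 (SD 5.25) without, a log2 ratio of -0.01. Both groups were chosen by Lhx8 at 2 or more. Of 12287 genes, 558 (4.54%) were more than 2-fold higher with Isl1 and 360 (2.93%) more than 2-fold lower. The median Tubb3 value was 29.5 with Isl1 and 36 without, and restricting to Tubb3 of at least 30 (142 and 831 cells) gave 475 higher (4.22%) and 472 lower (4.19%) of 11268. The counts were 212 and 141 of 9590 genes with at least 100 summed values, and 84 and 39 when 0.1 was added to both levels.

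Lhx6 stood at 1.10 (SD 1.49) with Isl1 and 3.51 (SD 2.28) without, a log2 ratio of -1.68. Of 16 interneuron lineage genes, 11 were more than 2-fold lower and 0 higher, with a median of -1.49 against 0.04 over all genes, and 12 of 16 were lower with Tubb3 of at least 30. They included Nxph1 (-2.42), Erbb4 (-1.91), Npas1 (-2.10) and Sst, the somatostatin gene (-3.93). Bcl11a, a zinc finger factor, stood at 1.69 (SD 1.98) against 5.61 (SD 3.82), a log2 ratio of -1.73. Calb1, Khdrbs2, Ripor2 and Epha5 completed the lower end of the ranking, from -2.56 to -1.61.

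The cholinergic lineage list was split. Zfhx3 was at 6.81 (SD 9.16) against 1.93 (SD 4.24), a log2 ratio of 1.82, and Zic2 (2.55), Zic4 (1.77), Zic5 (4.21) and Pou3f1 (1.17) were also higher with Isl1. Gbx1 (-1.56), Gbx2 (-1.29) and Nr4a2 (-1.44) were lower, which makes 5 higher and 3 lower of 10. Some of these calls lay near the limit: at a minimum value of 1 Gbx2 (-0.91) and Pou3f1 (0.82) were within 2-fold, as were Gbx2 and Nr4a2 (both -0.86) with 0.1 added to both levels. Zic1 (0.65) and Nkx2-1 (0.44) were within 2-fold. Chat and Slc18a3, the acetylcholine synthesis and loading genes, had no row in the table and could not be analysed. Of 3 machinery genes with enough values 1 was past 2-fold, the neurotrophin receptor Ngfr (1.64, or 0.29 with 0.1 added to both levels). With Tubb3 of at least 30, Ngfr no longer had enough values, and the other two, Ache, the acetylcholine-degrading enzyme (0.64 before, 1.47 now), and Slc10a4, a transporter of cholinergic vesicles (0.78 before, 1.02 now), were past 2-fold. Pnoc, the precursor of nociceptin, stood at 1.4 (SD 2.06) against 0.242 (SD 0.804), a log2 ratio of 2.54. Six3, a homeobox factor of the LGE lineage, was at 2.12 (SD 2.84) against 0.674 (SD 1.36), a log2 ratio of 1.66. Lmo1, Cdkn1c, Gadd45g, Tle4 and Asb4 made up the rest of this end, from 1.61 to 2.16. Lmo1, at 1.92 here, was within 2-fold (0.81) with Tubb3 of at least 30, where Lhx6 (-1.84) and Zfhx3 (2.32) stayed past it and Cdkn1c was at 0.99. None of the GABA synthesis or Dlx genes was past 2-fold, with Gad2 at -0.48. Of 16 striatal lineage factors, 5 were higher with Isl1, including Meis2 (1.88) and Sp8 (1.94), and 3 lower, including Bcl11a and Foxp2 (-1.53, or -0.94 at a minimum value of 1). That list gave 3 higher and 3 lower of 13 with Tubb3 of at least 30, and its median went from 0.34 to -0.10. Of 31 axon guidance genes, 7 were higher, including the secreted ligands Slit1 (3.39) and Slit2 (1.61), and 3 lower, including the receptor Robo2 (-1.39). Of 9 progenitor and Notch genes 3 were higher, and 1 of 8 was with Tubb3 of at least 30.

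The 2 groups fell in different clusters, with 228 of the Lhx8 neurons without Isl1 in cluster 12 and 187 in cluster 14. The progenitor-like clusters 16 and 3 held 77 and 17 of the 284 neurons with Isl1, and 31 and 52 of the 1176 without. The comparison was therefore repeated, after the values had been seen, inside each of the 6 clusters that held most Isl1-Lhx8 neurons. Only chosen genes were read, many of them from the ends of the ranking above, and in the same cells. Agreement in direction is therefore partly set by that choice, and no share over all genes was computed. Lhx6, Bcl11a, Khdrbs2 and Gbx1 were lower with Isl1 in 6 of 6 clusters, by any size. Zfhx3, Gadd45g, Six3, Pou3f1 and Meis2 were higher in 6 of 6. Some of these calls rested on few cells. The share of cells with Meis2 was lower with Isl1 in cluster 15 (26.9% against 28.8%) and cluster 11 (23.5% against 26.6%). Gbx1 was found in 5.88% against 7.69% of cells in cluster 3 and in 2.60% against 6.45% in cluster 16. In cluster 10 the Lhx6 level was 0.688 (SD 0.937) in 61 cells with Isl1 and 3.69 (SD 2.92) in 98 without. In cluster 16 it was 0.706 (SD 1.08) in 77 cells and 2.82 (SD 2.40) in 31, and in cluster 11 it was 2.61 (SD 1.84) in 17 cells and 3.93 (SD 2.23) in 154. Calb1 and Sst, in contrast, were lower in 3 of 6 clusters and higher in 3, Nxph1 was lower in 2, Lmo1 was higher in 4 and lower in 2, and Erbb4 was lower in 3.

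Lhx6 went down step by step as Isl1 went up. Among Lhx8 neurons without Ebf1, the Lhx6 level was 3.51 in 1176 cells with Isl1 at 0, 2.89 in 168 cells at 1, 1.59 in 135 at 2 to 4, 0.784 in 93 at 5 to 9, 0.625 in 35 at 10 to 14 and 0.156 in 21 at 15 or more. The Lhx8 level stayed between 7.68 and 8.84 over the same bins, but Lhx8 at 2 or more chose these cells. Gbx1 went from 0.715 to 0.0778, and Gad2 from 7.09 to 3.89. Nkx2-1 went up from 3.13 to 5.10, apart from a small fall from 4.15 at Isl1 values of 2 to 4 to 4.01 at 5 to 9. Inside the Isl1-Lhx8 group itself, the correlation of Isl1 with Lhx6 was -0.39 over 284 cells. Over all neurons the Ebf1 level was 0.0936 in cells with Isl1 at 0, 1.49 at 2 to 4 and 16.3 at 15 or more. The Lhx8 level over all neurons was 6.07, 4.89 and 2.17 in the same bins.

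**Figure D4:**
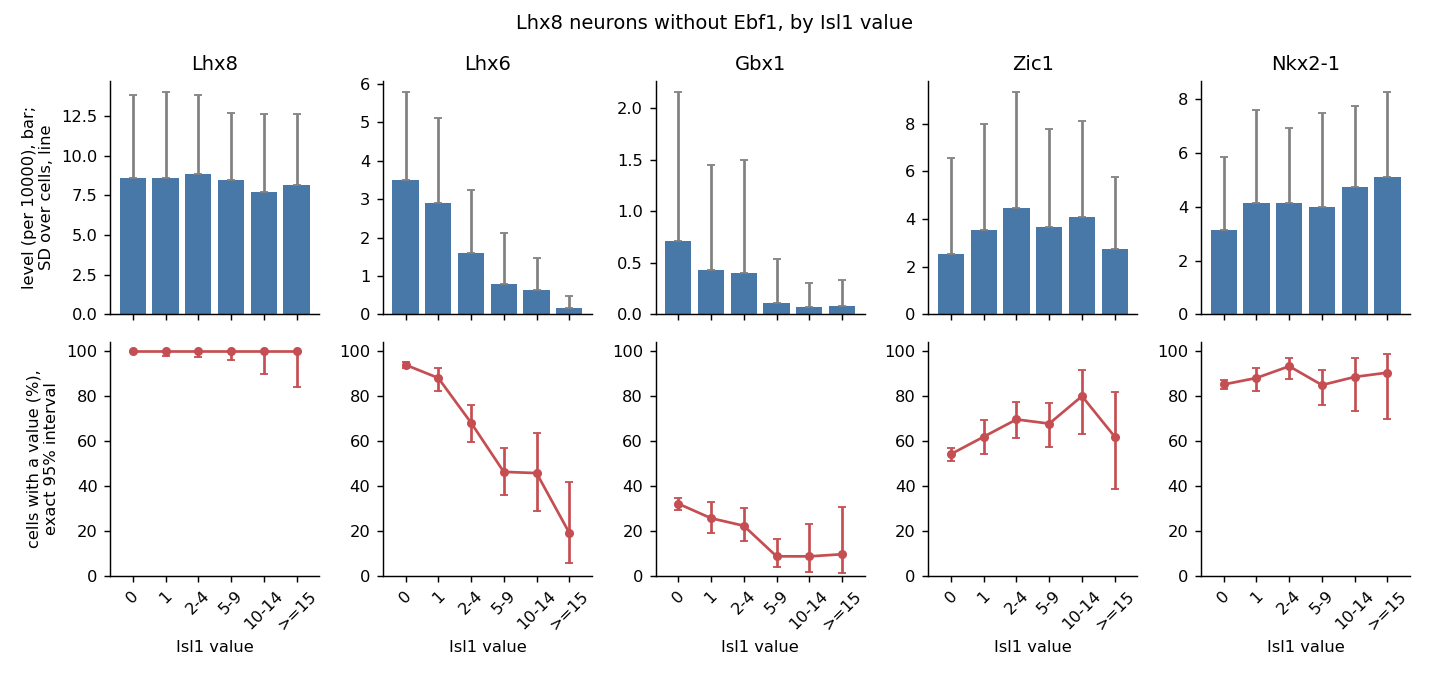
Lhx8 neurons without Ebf1, binned by Isl1 value. The upper row gives the level of each gene per 10000 values as a bar with the SD over cells as a line, and the lower row the share of cells with a value of at least 1 with its exact 95% interval. Lhx6 goes from 3.51 to 0.156 across the bins while Lhx8 stays between 7.68 and 8.84.

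Isl1 and Lhx8 belong to a family that shares cofactors. Of 11 LIM-homeodomain factors and cofactors with enough values, 3 were lower (Lhx1, Lhx6 and Lmo1) and 0 higher in Isl1-Ebf1 than in Isl1-Lhx8 neurons. The direction of Lhx1 was not stable: its log2 ratio was -2.17, but 1.06 at a minimum value of 1, and with Tubb3 of at least 30 it no longer had enough values, which left 2 lower of 9. In Isl1-Lhx8 neurons against Lhx8 neurons without Isl1, 3 of 11 were higher (Lhx1, Lmo1 and Lmo2) and 1, Lhx6, was lower, with a list median of 0.34. Restricted to Tubb3 of at least 30, 1 of 10 was higher, Lmo2 (1.52), and Lhx6 was lower, with a median of -0.22. With 0.1 added to both levels, Lhx1 (0.68) and Lmo2 (0.46) were within 2-fold. Ldb1, the adaptor on which LIM-homeodomain complexes form, was within 2-fold in both comparisons (-0.19 and -0.17), as was its partner Ssbp3 (-0.06 and 0.59).

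Along Tubb3, Isl1 was lower at the top than at 10 to 19 in Lhx8 cells and lay between 7.81 and 9.47 from 20 upward in Ebf1 cells; the difference between the partners was not tested. In cells with Lhx8 and no Ebf1, the Isl1 level was 1.14 (SD 2.12) at Tubb3 values of 5 to 9, 1.86 (SD 3.39) at 10 to 19, 1.28 (SD 2.89) at 20 to 29, 0.830 (SD 2.48) at 30 to 39 and 0.652 (SD 1.94) at 40 or more. The share with Isl1 in these cells was 33.2% (26.5% to 40.3%) at 10 to 19 and 11.9% (9.44% to 14.8%) at 40 or more. In cells with neither Ebf1 nor Lhx8 it also went down, from 43.1% (33.7% to 53.0%) to 26.6% (21.2% to 32.7%). In cells with Ebf1, the level was 9.01 (SD 6.09) at 20 to 29, 9.47 (SD 6.77) at 30 to 39 and 7.81 (SD 6.72) at 40 or more, with Isl1 present in 78.5% (67.8% to 86.9%) at the top. At Tubb3 of 10 to 19 there were 7 cells with Ebf1, with an Isl1 level of 2.74 (SD 3.65).

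**Figure D5:**
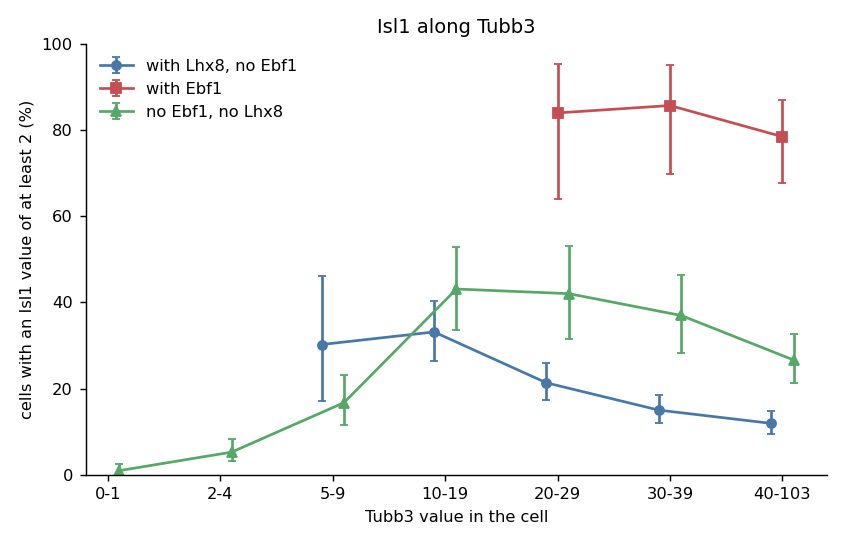
Share of cells with an Isl1 value of at least 2, with its exact 95% interval, by Tubb3 value, in bins of at least 20 cells. The share goes from 33.2% to 11.9% in Lhx8 cells above a Tubb3 value of 10 and lies between 78.5% and 85.7% in Ebf1 cells. In cells with neither gene it goes from 43.1% to 26.6% from a Tubb3 value of 10 upward.

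Ebf1 neurons without Isl1 were too few to describe a cell type. There were 9, of which 6 lay in cluster 5, led by Otp, Nhlh2 and Sim1, genes of hypothalamic and other neurons outside the ganglionic eminences. Cluster 5 was unnamed, but the glutamatergic markers Slc17a6, Tbr1, Eomes, Neurod1 and Neurog2 were raised in it. The glutamatergic markers summed to 2.58 in the 9 cells and to 0.00983 in Isl1-Ebf1 neurons. Otp stood at 5.61 (SD 6.76) and Nhlh2 at 2.85 (SD 4.56) in these 9 cells, and both were listed at 0 in the 78 Isl1-Ebf1 neurons. Tac1 and Dlc1 were listed at 0 in the 9. Of 5726 genes, 833 (14.5%) were more than 2-fold higher in Isl1-Ebf1 neurons and 208 (3.63%) lower. All 5 genes of GABA synthesis and transport were higher, Gad1 being listed at 0 in the 9 cells. With minimum values of 1 in place of 2, these cells numbered 30 and the higher genes 513.

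Isl1 neurons with neither Ebf1 nor Lhx8 numbered 193, of which 77 lay in cluster 18, 28 in cluster 16 and 18 in the Hmx2 and Hmx3 cluster 19. Against Isl1-Lhx8 neurons, 164 of 10123 genes (1.62%) were more than 2-fold higher and 207 (2.04%) lower. Nr2f1 and Nr2f2, nuclear receptors of the caudal ganglionic eminence, stood at 7.45 (SD 6.37) against 1.35 (SD 2.76) and at 4.25 (SD 4.28) against 0.639 (SD 2.01). Meis2 was at 4.07 (SD 6.97) against 0.751 (SD 2.03), a log2 ratio of 2.44. Of 10 cholinergic lineage factors 7 were lower and 0 higher, with Zic1 at 0.466 (SD 1.58) against 4.01 (SD 4.42), while Zfhx3 was within 2-fold (0.07). The Isl1 level of 5.89 (SD 4.02) lay within the SD over cells of that in Isl1-Lhx8 neurons, 5.11 (SD 4.04). Against Isl1-Ebf1 neurons, 541 of 8808 genes (6.14%) were more than 2-fold higher in the 193 neurons and 536 (6.09%) lower, with Nkx2-1 at 2.45 (SD 3.22) against 0.0590 (SD 0.211) and Tac1 at 0.0504 (SD 0.217) against 4.01 (SD 8.91).

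The Isl1-Ebf1 neurons were themselves mixed for Tac1. The 36 cells with Tac1 had an Isl1 level of 10.0 (SD 5.45) and the 42 without it 11.1 (SD 5.76), a difference within the SD over cells. Their Ebf1 levels were 27.2 (SD 16.9) and 26.4 (SD 18.6). All 36 cells with Tac1 lay in cluster 20. The 10 Isl1-Ebf1 neurons of cluster 18 had lower levels of Ebf1, at 10.6 (SD 10.1) against 29.01 (SD 17.4) in the 68 of cluster 20, and of Isl1, at 7.45 (SD 3.50) against 11 (SD 5.73), but Meis2 at 15.5 (SD 7.33) against 12.4 (SD 9.17).

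Genes whose pattern was most like that of Isl1 were ranked by Pearson correlation of log values. Over 3995 cells the highest were Zfhx3 (0.48), Vcan (0.45), Islr2 (0.43), Nefl (0.42), Tle4 (0.42), Rgs2 (0.41), Ebf1 (0.40), Nefm (0.39), Zfhx4 (0.39) and Pnoc (0.38). Over 2758 neurons, Meis2 (0.49), Zfp503 (0.41) and Dlc1 (0.40) took the places of Nefm, Zfhx4 and Pnoc. In neurons Lhx6 stood at -0.53 and Lhx8 at -0.24. All values come from 1 library, and cells are not independent samples.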

How the data were processed

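The RNA library of 1 pool was analysed, and its barcode list gave the suspensions. The submitters' processing notes name bcl2fastq, Cell Ranger 3.0.2 and GRCm38. The authors deposited a matrix of 18088 genes by 4001 cells as whole numbers up to 1245, treated here as a score because depth had been evened out by a step the sources do not give. No count model was therefore used. Scrublet in scanpy 1.11.5 (expected rate 5%) removed 6 cells (0.150%), too few for it to have worked as a doublet filter. Clusters were made without Isl1 by the Leiden method (igraph 0.11.9, resolution 1, seed 0) from 2000 variable genes, 30 components and 15 neighbours. A cluster was named from raised markers, again without Isl1, only if its 10 leading genes held more markers of that class than of others, or none of either. This naming rule was set after cluster values were seen.

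A ratio needed 30 summed values over both groups and was counted past 2-fold. Ranking added 0.5 to both levels. Named genes were Isl1, Ebf1, Lhx8, list members, 12 or 8 genes at each end of a ranking, and the 10 most correlated with Isl1. Other genes were chosen after their values were seen. A few listed genes enter the counts and medians but are not reported here by name. Members and lists were chosen with earlier results of these data known. Of the identifiers, 18071 matched GENCODE M21. Only the calculations of ratios and of correlation were tested on simulated data. The ratios were tested on Poisson values, which the deposited scores need not follow. Clustering, naming and the shares of cells were not tested in this way.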

Additional observations from a re-analysis of the deposited data

How the results depend on the processing

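No paired analysis was possible because the matrix is 1 pooled sample. With 1 sample, no replicate could be left out. The median of the direct pathway list against the 9 Ebf1 neurons without Isl1 has no value, as Tac1 is listed at 0 there. Counts of genes past 2-fold moved with the rules on low values; the cause was not tested. For Isl1-Ebf1 against Isl1-Lhx8 neurons, higher and lower genes were 230 and 284 with at least 100 summed values, 283 and 306 with 0.1 added to both levels, and 396 and 310 with Tubb3 of at least 30. For Lhx8 neurons with against without Isl1, they were 212 and 141, then 84 and 39, and a minimum value of 1 left 193 lower. Against the 9 Ebf1 neurons without Isl1, higher genes were 155 (at least 100 summed values), 513 (minimum value 1) and 1300 (minimum value 3), and lower genes 24 and, with 0.1 added, 126. Lhx8 among Isl1 neurons was 64.01% and 36.7% at minimum values of 1 and 3, Isl1 among Ebf1 neurons 60.7% and 91.7%, and Isl1 among Lhx8 neurons 30.4% and 14.1%, or 15.7% when thinned. By Spearman correlation 6 of the 10 genes most like Isl1 over all cells were shared. In Isl1-Ebf1 against Isl1-Lhx8 neurons, Lhx1 turned from -2.17 to 1.06 at minimum value 1. Against the 9 cells, the same minimum turned Zic1 to -0.57 and the medians of the indirect pathway, interneuron and stress lists to -0.17, -1.63 and -0.26. Among alternatives chosen after seeing the data, calling every value under 2 absent gave -0.45 and -0.33 for the indirect pathway and interneuron lists, and Tubb3 of at least 30 turned Lmo1 to 0.47 and Sox2 to 0.41. Over 5 other clusterings the Isl1 level of LGE neuron-like cells ranged from 6.85 to 8.40 and of cholinergic neuron-like cells from 0.314 to 0.973, and an LGE neuron-like cluster was highest in each. Raw depth is unknown, so a value of 0 does not show that a cell lacked Isl1.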

Other observations

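The 11 Isl1 neurons with both Ebf1 and Lhx8 had an Isl1 level of 7.60 (SD 5.92), Ebf1 at 11.2 (SD 10.8) and Lhx8 at 4.12 (SD 3.43), and lay in 7 clusters. Their median number of genes per cell was 4477, against 4389 and 3855 in the groups with 1 partner, and the part of doublets was not tested.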
